A study of Mus musculus with 4 samples.

Results

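The growth factors of the platelet-derived growth factor (PDGF) family, stem cell factor and hepatocyte growth factor were examined with their receptors in sorted cells of the mouse embryonic kidney. The members were the 10 genes Pdgfa, Pdgfb, Pdgfc, Pdgfd, Pdgfra, Pdgfrb, Kitl, Kit, Hgf and Met. They were found by the gene name that the scanner files give to each probe, which gave 12 of the 39429 non-control probes on the array, or 10 of its 31829 gene names. Pdgfa and Pdgfb had 2 probes each and the other 8 genes had 1 each.

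All of these receptors are receptor tyrosine kinases that pair up when a ligand binds. PDGF ligands act as dimers: PDGF-A and PDGF-C bind the alpha receptor, PDGF-B binds both receptors, and PDGF-D binds mainly the beta receptor. In the developing kidney the alpha receptor marks interstitial mesenchyme, and PDGF-B from endothelium recruits mesangial cells and pericytes, which carry the beta receptor. Stem cell factor, the product of Kitl, is the ligand of KIT, which mast cells, melanoblasts and blood progenitors need. Hepatocyte growth factor is typically made by mesenchyme and acts on epithelia through MET.

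Cells were taken from E15.5 kidneys of Six2GFP embryos on a hybrid background of 129 and C57BL/6, and were sorted into GFP-positive and GFP-negative fractions. By the protocol both fractions came from Six2GFP kidneys, so the groups differ in the sort and not in genotype. Each group had 2 samples, numbered 1 and 2, with 1 single-colour Agilent array per sample, and the question was how the progenitor fraction differs from the remaining cells of the kidney. The labels name the reporter without saying how it was built, do not give the number of embryos or litters behind a sample, and mention tamoxifen in a description field while the protocols say nothing of it. Their cell type field calls the GFP-negative cells nephron progenitors too, so the groups were taken from the sample titles. P-values rest on the spread between these 2 samples a group, which may be technical. They also rest on the spread of all probes, from which limma borrows.

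The sort was borne out by Six2. The marker lists were chosen with earlier results of these data known, so their counts are no independent check. Six2 itself was 56.5-fold higher in the positive cells by its brighter probe. Of the 10 nephron progenitor markers 9 rose, against 20.8% of all genes, the exception being Eya1 with a difference of 0.04. The negative fraction held other cell types of the kidney, with 10 of 12 stromal, 11 of 12 endothelial and 9 of 10 ureteric bud markers lower in the positive cells. So were 10 of 10 early nephron markers, with a median difference of -3.64, and 6 of 8 podocyte markers, with a median of -2.85. Macrophage markers did not follow: 2 of 10 were lower and 8 did not pass, with a median difference of -0.61. On each array 72.5% to 79.1% of the spots passed the scanner software's test against background, no spot was saturated, and the 75th percentile of the signal lay between 1410 and 1604 intensity units. Positive array 1 stood apart from positive array 2 in some markers of other cells: all 10 macrophage and 9 of 10 ureteric bud markers were higher on it, with median gaps of 0.58 and 0.38 on the log2 scale against 0.01 over all genes. In bulk RNA such as this, fewer cells of a type and less RNA per cell cannot be told apart.

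Probe sequences are shown for Met and Pdgfd, since the small Met difference and the dim Pdgfd signal each rest on these 60 bases alone. They are given 5′ to 3′, as the scanner files list them.
Met: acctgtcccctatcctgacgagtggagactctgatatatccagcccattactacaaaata
Pdgfd: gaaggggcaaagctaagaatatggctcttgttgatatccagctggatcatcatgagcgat
The Met probe lies at chr6:17503299-17503358 on the plus strand of mm9, and position 3437 of its transcript. The Pdgfd probe lies at chr9:6376926-6376985 on the plus strand, and position 1201 of its transcript. A stop codon was absent from 1 reading frame of the Met probe and from 2 of the Pdgfd probe.

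Promoters are shown for the 4 genes that carry the contrast described below: Pdgfc as the gene that was higher in the positive cells, Pdgfra as the one with the largest difference, and Kit and Kitl as a receptor and its ligand. Each runs from 250 bases before to 50 bases after the transcript start in RefSeq annotation of GRCm38.p6, all on the plus strand, and capitals mark the motifs found. The windows are chr3:81036166-81036465 for Pdgfc, chr5:75152001-75152300 for Pdgfra, chr5:75574737-75575036 for Kit and chr10:100015571-100015870 for Kitl.
Pdgfc: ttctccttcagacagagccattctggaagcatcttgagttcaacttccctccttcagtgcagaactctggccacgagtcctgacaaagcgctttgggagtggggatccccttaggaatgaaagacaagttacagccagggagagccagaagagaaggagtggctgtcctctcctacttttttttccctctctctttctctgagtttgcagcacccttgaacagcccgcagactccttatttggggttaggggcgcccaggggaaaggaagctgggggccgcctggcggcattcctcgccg
Pdgfra: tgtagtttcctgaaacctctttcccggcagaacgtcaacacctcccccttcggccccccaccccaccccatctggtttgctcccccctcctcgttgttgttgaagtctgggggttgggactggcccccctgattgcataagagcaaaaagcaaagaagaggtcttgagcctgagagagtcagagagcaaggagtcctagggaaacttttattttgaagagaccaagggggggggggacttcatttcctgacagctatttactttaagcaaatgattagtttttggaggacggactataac
Kit: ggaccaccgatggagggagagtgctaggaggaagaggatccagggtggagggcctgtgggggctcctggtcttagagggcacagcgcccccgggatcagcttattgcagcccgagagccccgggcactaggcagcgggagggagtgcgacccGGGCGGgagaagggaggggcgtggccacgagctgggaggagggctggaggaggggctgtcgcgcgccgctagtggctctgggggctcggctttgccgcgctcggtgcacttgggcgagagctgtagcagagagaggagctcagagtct
Kitl: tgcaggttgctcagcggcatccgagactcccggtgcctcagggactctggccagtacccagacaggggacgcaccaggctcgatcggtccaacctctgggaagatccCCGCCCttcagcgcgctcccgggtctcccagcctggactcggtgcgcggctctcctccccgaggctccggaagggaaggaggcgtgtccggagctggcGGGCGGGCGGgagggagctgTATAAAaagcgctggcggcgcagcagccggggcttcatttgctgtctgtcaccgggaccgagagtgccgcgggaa
The 5 short motifs searched, on both strands, were the GC box GGGCGG, the TATA box TATAAA, the CCAAT box CCAAT, a SIX-family element TCAGGTT and a WT1 element GCGTGGGAG. The Kit window held 1 GC box. The Kitl window held 3 GC boxes, 2 of which overlap in one run and 1 of which is on the opposite strand, and a TATA box downstream of them. Neither the Pdgfc nor the Pdgfra window held any of the 5. Promoters were searched for 8 of the 10 genes, not for Pdgfb and Pdgfrb, with 11 promoters in all. Of these 8 genes 4 (Kit, Kitl, Met and Pdgfa) held a GC box at any of their starts. Counted per promoter, 35.7% of 32851 promoters of the same length hold one, so the shares are not strictly alike. TATA boxes were found for Kitl and Pdgfd (13.6% of all promoters) and a CCAAT box at 1 of the 2 Hgf starts (37.4%). None of the member promoters searched held the SIX-family element (4.07% of all) or the WT1 element (0.472%). GC content was 69% for Kit and 68.7% for Kitl, against 55% for Pdgfc and 51% for Pdgfra.

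Most of the family was lower in the positive cells, and Pdgfc alone was higher. All 12 probes passed the filter on dim probes, which asked that both samples of one group or the other lay well above background. In limma's test with Benjamini-Hochberg adjustment over all 30012 probes kept, 8 probes of 7 genes fell, 1 rose and 3 did not pass an adjusted p of 0.05. Over all probes kept, 39.3% were called, 18.2% lower and 21.1% higher. Of the 8, the Hgf probe and the dimmer Pdgfb probe entered only through the negative group and so had to differ. Among the 10 probes well above background on all 4 arrays 6 fell and 1 rose. The median difference of the 12 probes was -2.19 on the log2 scale, or -1.97 with those 2 probes at their bounds described below, against 0.15 over all probes. With normexp background correction, which adds 50 to every intensity, it was -0.80 and -0.84, after scaling to the 75th percentile and after quantile normalization. The values of the groups did not overlap for any of the 12, but the same was true of 75.1% of all probes, so separation without overlap says little with 2 samples a group. Scaling by the array median moved all differences up by a like amount, to a median of 0.41 over all probes, and the split over all probes from 6344 higher and 5463 lower to 13562 higher and 4654 lower, while the members stayed at 1 higher and 8 lower.

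**Figure D1:**
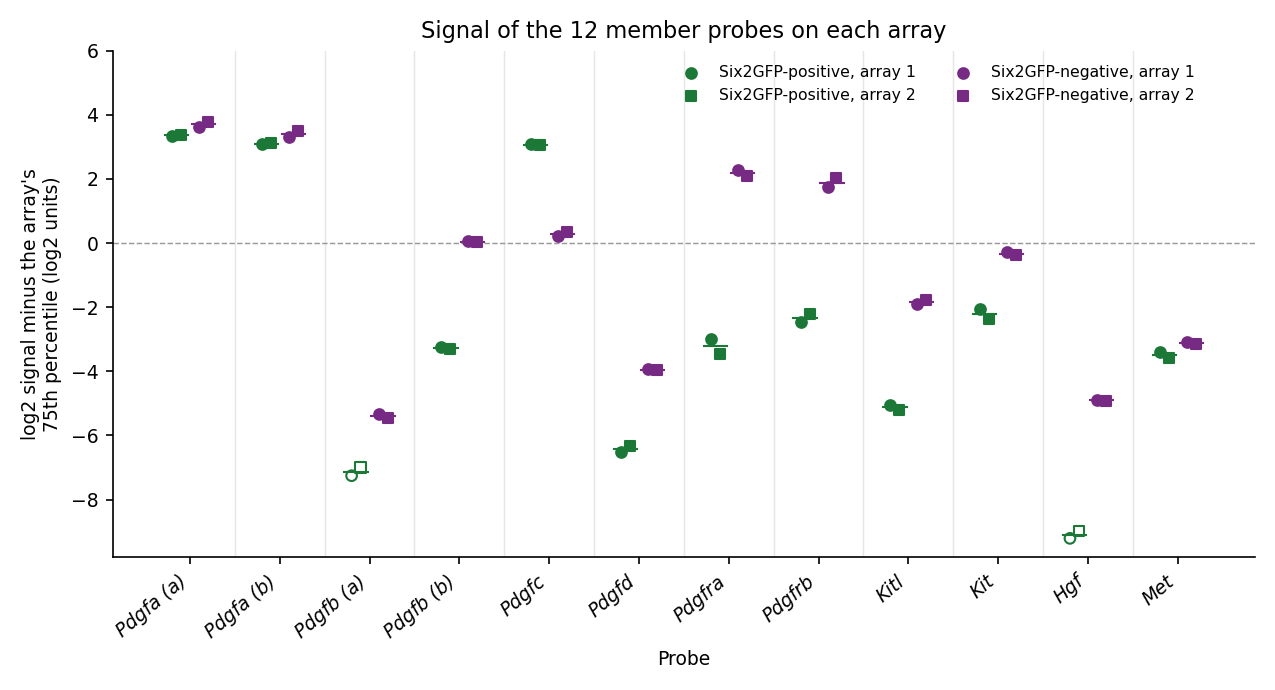
Signal of each of the 12 member probes on the 4 arrays, as log2 signal minus the array's 75th percentile (vertical axis, log2 units). Green marks positive and purple negative arrays, circles array 1 and squares array 2, short lines the group means, and open symbols a probe not well above background, as for Hgf and one Pdgfb probe on both positive arrays. Levels of different probes should not be set against each other.

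**Figure D2:**
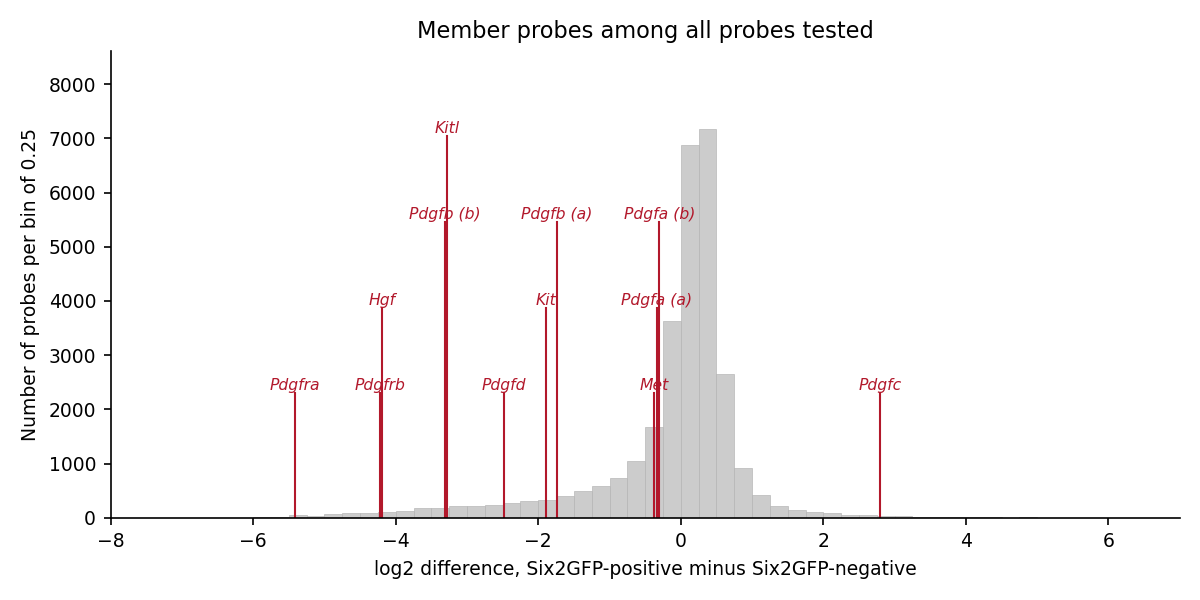
Histogram of the log2 difference, positive minus negative, of all 30012 probes kept, in bins of 0.25 (vertical axis, probes per bin), with red lines at the 12 member probes, whose heights only separate the labels. Pdgfc lies in the upper tail at 2.79, Pdgfra far in the lower tail at -5.41, and the Pdgfa and Met probes beside the bulk.

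Among the PDGF ligands, Pdgfc and Pdgfb went in opposite directions. Pdgfc (probe A_52_P376360 at chr3:81017572-81017631, plus strand, mm9), which encodes a ligand that is secreted latent and activated by cleavage, had log2 signals, relative to the array's 75th percentile, of 3.1 and 3.05 in the positive samples against 0.23 and 0.33 in the negative samples. Both positive arrays were far above both negative ones, and replicates lay close together. Its difference was 2.79 ± 0.09 (SE, n = 2 a group; limma adjusted p = 0.000526), a 6.92-fold higher signal, which ranked 177th from the top of all probes. In intensity units the Pdgfc signal was 12263 and 11636 against 1880 and 2000. Its difference stayed between 2.68 and 3.04 in 11 other settings and between 2.74 and 2.84 when any array was left out.

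Pdgfb encodes the ligand that endothelium supplies to mural cells, and its 2 probes lie 1062 bases apart on the transcript. The brighter one (b; A_55_P2047310 at chr15:79826376-79826435, minus strand) read -3.23 and -3.31 in the positive samples against 0.05 and 0.03 in the negative samples. Its groups were widely separated, and the difference was -3.31 ± 0.09 (limma adjusted p = 0.000477), 9.92-fold lower. The dimmer Pdgfb probe (a; A_55_P1974441 at chr15:79827438-79827497, minus strand) read -7.25 and -7.00 against -5.33 and -5.44. It was not well above background on either positive array, so its fold is a bound: in each positive sample the probe's value was replaced, where lower, by the dimmest signal that still counted as well above background there, and the negative mean was set against the mean of these. By that bound the dim Pdgfb probe was at least 2.95-fold lower (limma adjusted p = 0.00222). It was tested only because the negative samples cleared background, so its positive values and the p carry less weight than those of the brighter probe. The bound leaves room for the 9.92-fold of the brighter probe. Endothelial markers moved the same way: 11 of 12 were lower in the positive cells with a median difference of -5.22, and their summed signal, in multiples of the 75th percentile, came to 10.2 and 9.94 in the positive samples against 39.2 and 38.4 in the negative samples. Most of the positive sum came from Kdr, which did not pass by its brighter probe, and Egfl7, and the other 10 markers summed to 0.37 and 0.40 against 13.1 and 12.4. The part of endothelium in the Pdgfb difference was not tested.

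Pdgfd (A_52_P264790), the ligand of the beta receptor, read -6.53 and -6.34 in the positive samples against -3.92 and -3.97 in the negative samples. All 4 signals were dim, at 15.49 and 17.4 against 106 and 101 intensity units, but the groups were well apart. The difference was -2.49 ± 0.11 (limma adjusted p = 0.00072), 5.61-fold lower. With normexp background correction, which adds an offset of 50 to every intensity, it was -0.93 (scaled to the 75th percentile) and still passed.

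Pdgfa was bright in both fractions and differed little. Its first probe (a; A_55_P2007470 at chr5:139452934-139452993, minus strand) read 3.35 and 3.39 in the positive samples against 3.63 and 3.79 in the negative samples. The second (b; A_55_P2125588, 9 bases further along and sharing 51 bases, so no separate measurement of the transcript) read 3.08 and 3.11 against 3.32 and 3.48. Both positive values were below both negative values on each probe, and the negative replicates lay further apart than the positive ones. The differences were -0.34 ± 0.10 (95% interval -0.62 to -0.06; limma adjusted p = 0.0629) and -0.30 ± 0.10 (-0.58 to -0.02; limma adjusted p = 0.0826), and neither passed. Pdgfa depended on the scaling: both probes passed under quantile normalization, at -0.52 and -0.48, and were near 0 when scaled by the array median, at -0.09 and -0.05.

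Both PDGF receptors were far lower in the positive cells. Pdgfra (A_51_P345649 at chr5:75593888-75593947, plus strand), the alpha receptor, read -2.98 and -3.45 in the positive samples against 2.29 and 2.10 in the negative samples. In intensity units that was 181 and 129 against 7862 and 6787. The positive arrays were low but well above background, and array 1 was the higher of them by 0.47. The difference was -5.41 ± 0.20 (limma adjusted p = 0.000556), 42.5-fold lower and the 53rd lowest of all probes. Leaving out positive array 1 gave a Pdgfra difference of -5.64, and leaving out array 2 gave -5.18.

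Pdgfrb (A_55_P1957249 at chr18:61244606-61244665, plus strand), the beta receptor of pericytes and mesangial cells, read -2.45 and -2.21 in the positive samples against 1.76 and 2.02 in the negative samples. The groups lay far apart, with gaps of 0.24 and 0.25 between replicates. Its difference was -4.22 ± 0.15 (limma adjusted p = 0.000539), 18.7-fold lower, from 261 and 304 against 5441 and 6418 intensity units. Each receptor's signal in the positive cells was thus a small share of that in the negative cells, and neither was at background.

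Stromal markers fell with the receptors in 10 of 12 cases, with a median difference of -3.82. Their summed signal was 38.4 and 34.3 in the positive samples against 179 and 164 in the negative samples. Meis2, the stromal marker that rose (1.30; limma adjusted p = 0.00223), made up 18.2 and 17.1 of the positive sums, and the other 11 markers summed to 20.2 and 17.2 against 172 and 157. Tbx18, a marker of ureteric and perivascular stroma, did not clear background in the positive cells, where it was lower at least 24.8-fold. Foxd1, the marker of cortical stromal progenitors, did not pass (-0.21 ± 0.14; limma adjusted p = 0.303). Of 12 mural and mesangial markers 8 fell and 3 rose, with a median of -2.52. Their summed signal was 37.6 and 38.9 against 43.6 and 47.6. Most of the positive sum came from Mcam, which did not pass, and Itga8, which rose. The group means on the log2 scale were 4.22 against 4.32 for Mcam and 3.77 against 1.49 for Itga8. The near-equal sums therefore say little of the other mural markers. Kcnj8, a potassium channel of pericytes, did not clear background in the positive cells either and fell at least 25.3-fold. Those that rose were Des, Itga8 and Ren1, at 2.99, 2.28 and 1.35. The part of stromal and mural cells in the receptor differences was not tested.

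The Pdgfra probe was printed as 10 spots on each array, which shows the measurement error within an array. On positive array 1 its spots ran from 166 to 191 intensity units with a median of 184, and on positive array 2 from 118 to 140 with a median of 132. Negative array 1 ran from 7402 to 8101 and negative array 2 from 6405 to 7036. The SD between spots was 0.06, 0.09, 0.04 and 0.04 on the log2 scale, in the same order, so the gap between the positive arrays was wider than the spread of spots and the difference between groups wider still.

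**Figure D3:**
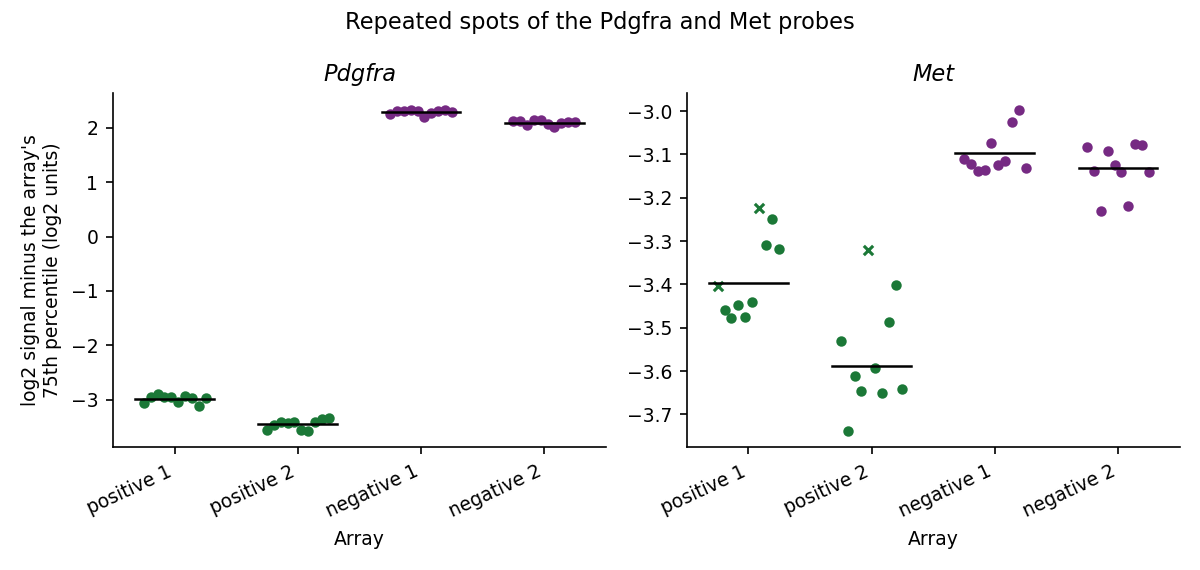
Every spot of the Pdgfra probe (left) and the Met probe (right) on the 4 arrays, as log2 signal minus the array's 75th percentile, with crosses for spots that were flagged as outliers and left out, and a line at the mean of the rest. The vertical axes differ: the difference is -5.41 for Pdgfra and -0.38 for Met.

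KIT and its ligand were both lower in the positive cells. Kitl (A_55_P2001494 at chr10:99558962-99559021, plus strand), which encodes stem cell factor, read -5.04 and -5.20 in the positive samples against -1.90 and -1.78 in the negative samples. Its signal was 43.4 and 38.5 intensity units against 428 and 461, with no overlap and close replicates. The difference was -3.28 ± 0.11 (limma adjusted p = 0.000526), 9.69-fold lower, and with normexp correction it was -2.07 after scaling to the 75th percentile and -1.99 after quantile normalization.

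Kit (A_66_P128434 at chr5:76052394-76052453, plus strand), the receptor, read -2.06 and -2.37 in the positive samples against -0.27 and -0.38 in the negative samples. Positive array 1 was again the higher of the positive pair, and both were below the negative arrays. The difference was -1.89 ± 0.14 (limma adjusted p = 0.00237), 3.71-fold lower, from 343 and 272 against 1330 and 1221 intensity units. Leaving out positive array 1 gave -2.05, and leaving out array 2 gave -1.74.

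Markers of mast cells and of blood progenitors, both known to depend on KIT, were mostly lower in the positive fraction. Of 8 mast cell genes 5 could be tested and 4 fell, among them Cpa3, the mast cell carboxypeptidase, at least 72.9-fold, and Cma1, a chymase, at least 8.74-fold lower. Cpa3, Cma1 and Mcpt4 were not well above background in the positive cells, and the summed mast cell signal was 0.69 and 0.64 against 3.44 and 3.17. Among erythroid and blood progenitor genes 9 of 10 fell, with a median of -4.38 and a summed signal of 10.9 and 15.55 against 309 and 294. The part of these cells in the Kit difference was not tested.

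Pdgfra and Kit are neighbours on chromosome 5, with no protein-coding gene between them in the RefSeq order, and Kdr, the endothelial VEGF receptor, follows Kit in the same way. Kdr was looked at for that reason after its values were seen. Its probes disagreed: A_51_P316553 was lower in the positive cells by -5.29 ± 0.12 (limma adjusted p = 0.000477), while the brighter A_55_P2094469 read 2.61 and 2.52 against 2.58 and 2.41 and did not pass (limma adjusted p = 0.639). A direction for Kdr therefore depends on the probe.

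The ligand and the receptor of the HGF pathway differed in how they were measured. Hgf (A_51_P484998 at chr5:16124829-16124888, plus strand), the ligand, read -9.21 and -8.98 in the positive samples against -4.90 and -4.91 in the negative samples. That was 2.42 and 2.79 intensity units against 53.8 and 52.7. It was not well above background on either positive array and dim but detected on both negative ones. By the bound described for Pdgfb it was at least 4.12-fold lower (limma adjusted p = 0.000477), and like that probe it was tested only through the negative samples. The fitted Hgf difference of -4.19 uses positive values below background and is no measured size, and normexp correction with its offset of 50 brought it to between -0.66 and -0.74.

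Met, the receptor, read 136 and 117 intensity units in the positive samples against 187 and 181 in the negative samples. It was well above background on all 4 arrays, and the sequence printed above is its only probe (A_51_P103929). On the scaled log2 values Met read -3.40 and -3.59 in the positive samples against -3.10 and -3.13 in the negative samples. The positive arrays were both lower, and the gap of 0.19 between them was wide beside the difference between the groups. That difference was -0.38 ± 0.11 (95% interval -0.67 to -0.08; limma adjusted p = 0.0574) and did not pass. Among probes well above background on all 4 arrays the adjusted p was 0.0492, and over all alternatives it ran from 0.0492 to 0.429. Met was also printed as 10 spots: after removal of outlier spots, 8 and 9 were left on the positive arrays, with SDs of 0.09 and 0.10, and 10 each on the negative arrays, with SDs of 0.05 and 0.06. Its spots ran from 128 to 150 and 106 to 133 intensity units on the positive arrays, and from 182 to 201 and 169 to 188 on the negative arrays. On the scaled log2 values the nearest kept spots of the groups were at -3.25 and -3.23, and a spot left out as an outlier on positive array 1, at -3.22, lay within the range of the negative spots. Spots of 1 array are not replicates. Ureteric bud markers, whose epithelium is a classical site of Met, fell in 9 of 10 cases with a median of -3.97. Positive array 1 exceeded positive array 2 by a median of 0.38 for these markers and by 0.19 for Met. Early nephron markers fell in 10 of 10 cases, with a median of -3.64, and their median gap between the positive arrays was 0.03. The part of ureteric bud or early nephron cells in the Met values was not tested.

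**Figure D4:**
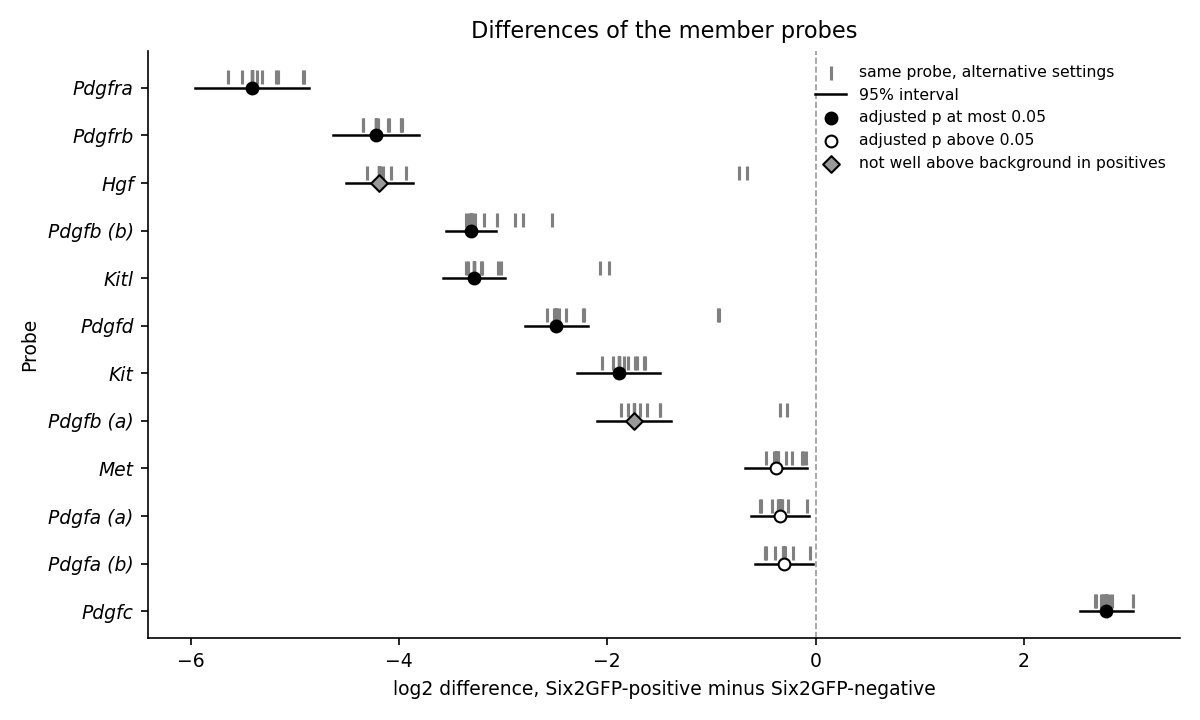
Log2 difference, positive minus negative, of each member probe (point) with its 95% interval from limma (line), filled where the adjusted p was at most 0.05, as grey diamonds for the Hgf and Pdgfb (a) probes, whose fitted values use positive signals not well above background, and grey ticks for the same probe under the alternative settings. Every tick keeps the sign of its point. Those of Hgf, Pdgfd, Kitl and Pdgfb (a) that lie apart to the right are the normexp settings.

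Other genes were ranked by how closely their 4 values, each centred on its own mean, followed those of a member, among 10411 probes past the threshold and well above background on all arrays. With 4 arrays in 2 groups this likeness is mostly one of size. Nearest to Pdgfra was Gm6792, at a root mean square distance of 0.04 log2 units, followed by a transcript without a gene symbol and Art4 at 0.12. Pdgfrb was most like Fabp7, Synpo and Adcy4, at 0.07 to 0.08, though the brighter Synpo probe differed by only 0.08. Kit was most like Defb29, Rrad and Lbh, at 0.02 to 0.03, and Met like Galnt14, Decr1 and Prcp, at 0.02.

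A wider list of 60 genes covers the machinery around these receptors, and 57 of them could be tested by their brightest probe. Of these, 8 rose, 20 fell and 29 did not pass, against 20.8% higher and 18.4% lower over all 24150 genes by their brightest probe (39.2% in either direction, and 74.9% without overlap between groups). The median difference of the 57 was -0.15, against 0.15 over all genes. Counted by probe, 12 of 81 rose and 26 fell, which became 31 and 25 with scaling by the array median.

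Proteases and protease inhibitors that act on HGF in the extracellular space gave the largest differences. Of 14 such activators, inhibitors and binders tested, 6 fell, 1 rose and 7 did not pass, with a median of -0.70, which was -0.22 with normexp correction and -0.27 among probes well above background on all 4 arrays. Spint1, an inhibitor of HGF activator, fell by 3.85 ± 0.26 (limma adjusted p = 0.00182) and by 3.22 on its other probe. The probes of Spint2 disagreed: the brighter one did not pass, at 0.11, while the other differed by -1.73. St14 encodes matriptase, which can cleave pro-HGF, and fell by 3.71 ± 0.29 (limma adjusted p = 0.0025). Plau, urokinase, fell by 3.19 ± 0.21 (limma adjusted p = 0.00165). Its positive signals were dim, and with normexp correction scaled to the 75th percentile its difference was -1.61. Sparc, which binds PDGF, was the one that rose, by 0.36. Positive array 1 exceeded array 2 for both Spint1 and St14, Spint1 at -3.49 against -4.14 and St14 at -3.78 against -4.52, and for 9 of 10 ureteric bud markers. Early nephron markers, of which 10 of 10 fell, were higher on positive array 1 in 6 cases. The part of ureteric bud or early nephron cells in these differences was not tested.

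Related receptors, ligands and partners were lower in 7 of 11 cases and higher in 1, with a median of -0.81, which was -0.54 with normexp correction. Csf1, a macrophage growth factor whose receptor is of the same class as KIT, fell by 1.80 ± 0.11 (limma adjusted p = 0.00152), and by up to 3.17 on its other probes. Cspg4, the NG2 proteoglycan of pericytes and a PDGF co-receptor, fell by 1.60 ± 0.12 (limma adjusted p = 0.00213). Il34, another ligand of the CSF1 receptor, fell by 1.49 ± 0.15 (limma adjusted p = 0.00527), a difference of -0.69 with normexp correction. Csf1r did not pass, at -0.53, and read 2.46 on positive array 1 and 1.97 on array 2. Pdgfrl, a PDGF receptor-like gene, was the one that rose, by 0.75 ± 0.10 (limma adjusted p = 0.00927).

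Downstream of the receptors changes of both signs were found. Among 22 adaptors, kinases and transcription factors 3 rose, 7 fell and 12 did not pass, and the median of 0.04 turned to -0.07 under quantile normalization and -0.03 with normexp before it. With scaling by the array median it was 0.29, and the balance turned to 11 higher and 5 lower. Pik3r1, a regulatory subunit of PI3-kinase, fell by 1.63 ± 0.08 (limma adjusted p = 0.000967). Lyn, a Src-family kinase, fell by 1.56 ± 0.17 (limma adjusted p = 0.00569), and Stat5a, a transcription factor activated by KIT, fell by 1.43 ± 0.11 (limma adjusted p = 0.00245). With normexp correction scaled to the 75th percentile, Lyn was at -0.72 and Stat5a at -0.96. General components such as Grb2 (0.21), Shc1 (-0.08) and Ptpn11 (0.21) did not pass.

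Of 10 negative regulators 3 rose, none fell and 7 did not pass, with a median of 0.31, where 20.8% of all genes rose. The count depended on the setting: 7 rose with scaling by the array median, at a median of 0.56, 6 with normexp correction, and 1 or 2 with an array left out. Cblb, a ubiquitin ligase that targets activated receptors, rose by 1.49 ± 0.12 (limma adjusted p = 0.0026), and by 1.01 on its other probe. Sh2b3, the adaptor LNK, which restrains KIT, rose by 0.46 ± 0.11 (limma adjusted p = 0.0364), and Lrig1, which promotes receptor turnover, by 0.42 ± 0.09 (limma adjusted p = 0.0292). The calls of Sh2b3 and Lrig1 were lost when any 1 array was left out, at adjusted p from 0.0827 to 0.165 and from 0.0846 to 0.142.

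**Figure D5:**
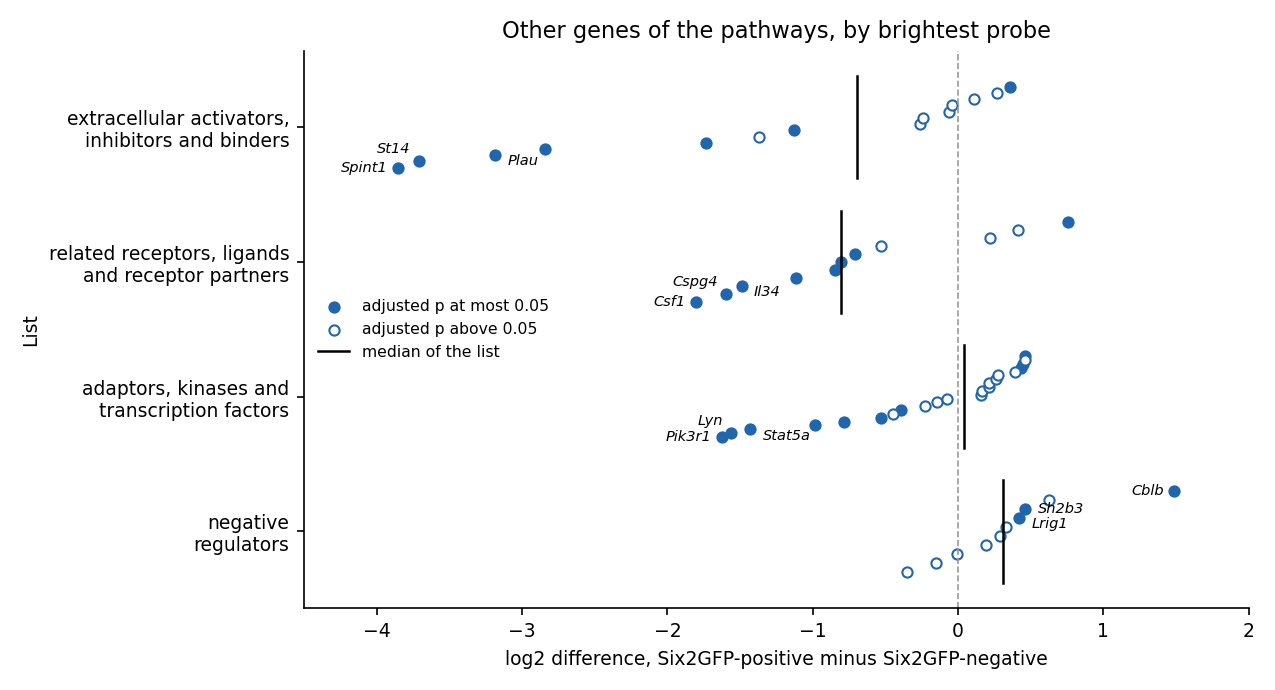
Log2 difference, positive minus negative, of the 57 other genes tested, by list, each by its brightest probe, filled where limma's adjusted p was at most 0.05, with a line at each list's median and names for the 3 largest called differences. The extracellular proteases and inhibitors reach furthest to the left, and of the negative regulators Cblb lies furthest to the right.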

How the data were processed

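Total RNA of 4 sorted samples, 2 per group, was measured on single-colour (Cy3) Agilent arrays, 1 per sample. The authors quantified the scans, per the file headers, with Feature Extraction 10.7.3.1, and the deposited scanner files hold linear intensity per spot, detrended within but not normalized between arrays, with probe positions in mm9. The deposited series table holds the same intensity per probe: 99.8% of probes lay within 0.01 log2 of it, so its scale, centring and direction are known (medians 114, 110, 157 and 143). Outlier spots were left out, spots of a probe averaged, and log2 of the processed signal was set against the array's 75th percentile over 39395 probes. The 30012 probes well above background on both arrays of a group entered limma (version 3.58.1, R 4.3.3), with lmFit, then eBayes, a two-sided test and Benjamini-Hochberg adjustment over all probes (threshold 0.05). Errors are limma's standard errors, in which eBayes draws each probe's variance towards that of all probes (prior degrees of freedom 2.00). The number of arrays limits the precision. A gene's level refers to its brightest probe where only one is used. 

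Members and lists were chosen with earlier results of these data known. All member probes were named, and from each pathway list the 3 genes with the largest called difference. Other genes were named after their values were seen. The melanocyte and neural crest marker list is not reported here. Genes were named through RefSeq accessions for 26055 probes. Alternatives were other scalings, background corrections, filters, probe rules, variance settings, a replicate block and leaving out each array.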

Additional observations from a re-analysis of the deposited data

How the results depend on the processing

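The 9 member probes called kept their direction in every alternative that gave them a value, and their call where no array was left out. Hgf and Pdgfb probe a are among the 9 but entered only through the negative group and had to differ. For those 2 the steady call says little. Over all probes 11807 passed, against 18216 with the array median and 5398 to 6456 with 1 array left out. Pathway probes passing went from 38 to between 20 and 25 with 1 array left out. Pdgfa probe a passed at -0.52 under quantile normalization, -0.36 with normexp, -0.53 with normexp and quantile, and -0.34 with an intensity trend and robust variance. Pdgfa probe b passed at -0.48, -0.32, -0.48 and -0.30 in the same settings. Met passed at -0.38 among probes well above background on all 4 arrays, where fewer probes were tested. For the Pdgfa calls the cause was not tested. Without a filter on dim probes Sh2b3 and Lrig1 did not pass (adjusted p = 0.0729 and 0.0632, limma).

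With replicate number as a block, 11101 probes, 9 member probes and 40 pathway probes passed. The numbers are not stated to pair the samples, whose deviations correlated at 0.22. All arrays were on 1 slide with 1 scan time, so a slide block could not be fitted. The filter on all 4 arrays left no value for Hgf and Pdgfb probe a, and the brightest-probe rule none for the other Pdgfa and Pdgfb probe. Dim probes limit Hgf, Pdgfb probe a and Pdgfd: normexp correction shrank Pdgfb probe a to -0.28. The sizes of Plau, Il34, Lyn and Stat5a depended on it in the same way. Cspg4 and Pik3r1 changed little, to -1.56 and -1.47.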
